A study of Mus musculus with 31 samples.

Results

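Total mRNA of Ba/F3 cells was compared between libraries whose labels carry the replicate number 1 and libraries that carry the number 3, across the R98S and WT genotypes together and within R98S alone. The libraries were chosen by the number in their labels, which gave 11 of the 31 libraries of the series, 5 with number 1 (3 R98S, 2 WT) and 6 with number 3 (3 R98S, 3 WT). Ba/F3 is a mouse lymphoid line that grows on interleukin-3, and these cells were engineered to express human RPL10, a protein of the large ribosomal subunit, either as WT or with the R98S change found in leukaemia. Each library is 1 clone: R98S clones 11, 13 and 35 stood in both numbers, WT clones 28 and 29 stood in both, and WT clone 36 entered with number 3 only. Per the study's reporting form, the authors left out the number 1 library of clone 36 because it grouped with the R98S clones in a principal component analysis, so the WT libraries of number 1 were chosen in part by their expression. Per the study's methods, all groups carried a human RPL10 cDNA from a retroviral vector together with an shRNA that knocks down the mouse gene, and each clone was grown from a single cell and picked for strong knock-down. How reads of the human copy were assigned is not given in the sources used here. The labels do not say what the number stands for (a day, a thaw, a passage or a library preparation), so the number cannot be told apart from anything that was done together with it. The p-values measure the spread between these clones and libraries. The question put to the data was which transcripts varied with the number irrespective of genotype.

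Growing cells spend much of their transcription on making ribosomes. RNA polymerase I copies the ribosomal DNA, nucleolar proteins cut, fold and modify the transcript, RNA polymerase III makes 5S RNA and the tRNAs, and ribosomal proteins are added on the way to the cytoplasm. The genes of this programme are raised together by growth signals and by MYC, which binds the E-box letters CACGTG. FoxO transcription factors, the p53 pathway and the amino acid response through ATF4 are switched on when growth factors, nutrients or amino acids run short.

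Levels are given in normalized reads, that is, read counts per gene divided by a size factor for each library. Depth was similar, with 13466721 to 17827021 reads counted in genes in number 1 and 11471068 to 22059792 in number 3, and genes of the mitochondrial genome took 0.904% to 1.5% of the reads in number 1 against 1.29% to 1.73% in number 3. Genotype dominated the libraries: the first principal component held 62.3% of the variance, and genotype accounted for 98% of that component against 1.66% for the number. The cells carried the interleukin-3 receptor genes that the line depends on, Csf2rb at 28599 to 119306 and Il3ra at 288 to 768 normalized reads, and the B lineage genes Cd79a and Cd79b, while Pax5 and Rag1 were at 0 in all 11 libraries and Ebf1 did not exceed 1 read. A fibroblast marker sum stayed between 0 and 12, and 8 T cell markers summed to 38.4 to 149 in number 1 and 47.2 to 140.1 in number 3. The 9 macrophage and neutrophil markers found summed to 434 to 4934 against 185 to 6767, carried by Emr1 at 143 to 6519. The 8 erythroid markers found in the table summed to 455 to 769 in number 1 and to 692 to 2733 in number 3. The 7 mast cell and basophil markers summed to 636 to 18926 against 596 to 45359, carried by Cma1 at 303 to 43536. Whether cells of other types were present, and the part of these marker genes in the results, was not tested. In these bulk libraries fewer cells of a type and less RNA per cell cannot be told apart.

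Mouse Rpl10 (chrX:74270812-74273135), the gene whose human counterpart was changed, was itself higher in number 1. It stood at 1642, 1138 and 2984 normalized reads in R98S clones 11, 13 and 35 and at 1366 and 5715 in WT clones 28 and 29 with number 1, against 1222, 901 and 1024 in R98S and 943, 1249.5 and 1339 in WT clones 28, 29 and 36 with number 3. All 5 clones that have both numbers were higher in number 1, but the lowest number 1 library lay inside the range of number 3 and WT clone 29 stood far above the rest. The difference was 0.99 ± 0.33 on the log2 scale (SE; limma adjusted p = 0.065), and without the number 1 library of WT clone 29 it was no longer called (adjusted p = 0.179, with 0.00219 to 0.179 over 25 alternative settings). An shRNA targeted this gene in all groups, so the values are those of the transcript that was left and of any reads of the human copy assigned to it. Rpl10 also has many near-identical copies in the genome, so its reads are uncertain. Psph, the serine synthesis enzyme in which the study was interested, did not pass the test (log2 difference 0.31 ± 0.21, limma adjusted p = 0.335).

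Of 11093 genes with a mean of at least 10 normalized reads, limma called 2581 (23.3%) at an adjusted p under 0.1, of which 1189 (10.7%) were higher and 1392 (12.5%) lower in number 1. The differences were moderate, with 216 of the called genes past 2-fold. Among the called genes, 1045 of the 1189 were higher in number 1 in each of the 5 clones and 1264 of the 1392 were lower in each, against 15.7% and 17.4% of all genes tested. Ranges of the numbers did not overlap within either genotype for 651 of the higher and 872 of the lower calls, where 6.34% and 8.10% of all genes had such a pattern. A few libraries bore on these counts, as the levels of ribosome biogenesis genes show next. Number 3 was not uniform by the chi-square per gene between libraries, which is lower for more alike ones. WT clone 36 with number 3 lay at 45.1 and 61.4 from the number 1 libraries of WT clones 28 and 29. From their number 3 libraries it lay at 82.97 and 80.9. R98S clone 13 with number 3 lay at 82.5 and 101.9 from R98S clones 11 and 35 of that number, themselves 30.9 apart. Of the R98S libraries its own number 1 library was nearest, at 58.05. Leaving out the number 1 library of WT clone 29 lowered the calls to 1308 of 11103 genes (11.8%), 459 (4.13%) higher and 849 (7.65%) lower, and leaving out WT clone 36 raised them to 3093.

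**Figure D1:**
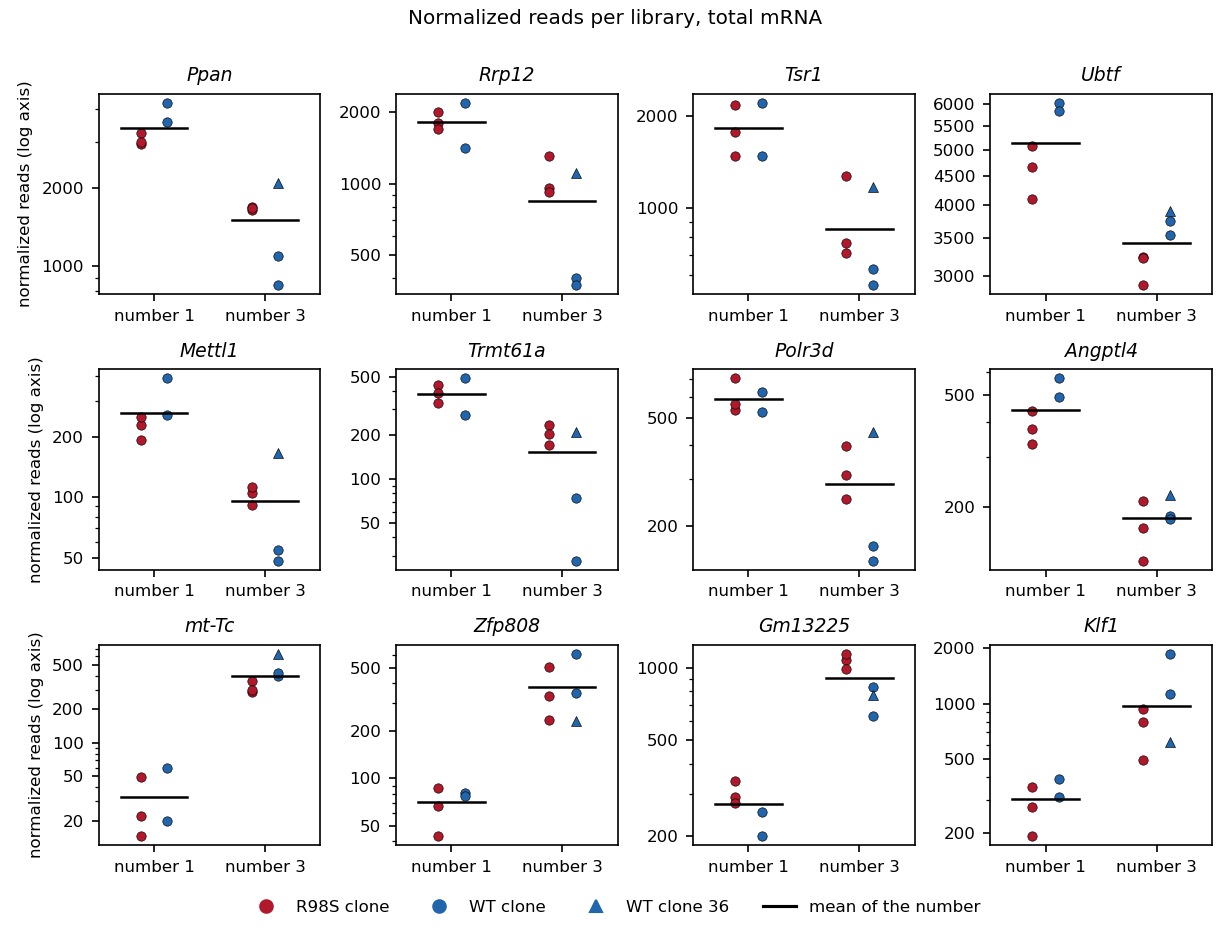
Normalized reads of 12 named genes in each of the 11 total mRNA libraries, on log axes, with R98S clones in red, WT clones in blue, WT clone 36 as a triangle and a bar at the mean of each number. All 5 number 1 libraries lay above all 6 of number 3 for Ppan, Rrp12, Tsr1, Ubtf, Mettl1, Trmt61a, Polr3d and Angptl4, and below all 6 for mt-Tc, Zfp808, Gm13225 and Klf1.

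Ribosome biogenesis was the group of genes with the highest share of calls among the lists examined. All 80 genes of the list were tested and 54 rose in number 1, none fell, and all 80 had a positive difference, with a median log2 difference of 0.61 beside 0.01 over all genes tested. The share called was 67.5%, against 10.7% of all genes called higher. For 30 of the 80 the numbers did not overlap within either genotype, against 6.34% of all genes. The median over the list was positive in each clone, at 0.52, 0.18 and 0.49 in R98S clones 11, 13 and 35 and at 0.84 and 1.40 in WT clones 28 and 29. Relative to the number 3 mean of its genotype, the list stood at 0.28 to 0.46 in the R98S libraries of number 1 and at 0.60 and 1.02 in those of WT. Within number 3 the libraries were not alike: WT clone 36 stood at 0.57 and R98S clone 13 at 0.25, while the other 4 lay between -0.33 and -0.07. The list had 26 calls without the number 1 library of WT clone 29, where 4.13% of all genes were called higher, and 71 without WT clone 36, where 13.2% were, all of them higher in number 1. The 6 libraries that carry the number 2, which did not enter the test, stood at -0.61 to 0.06.

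**Figure D2:**
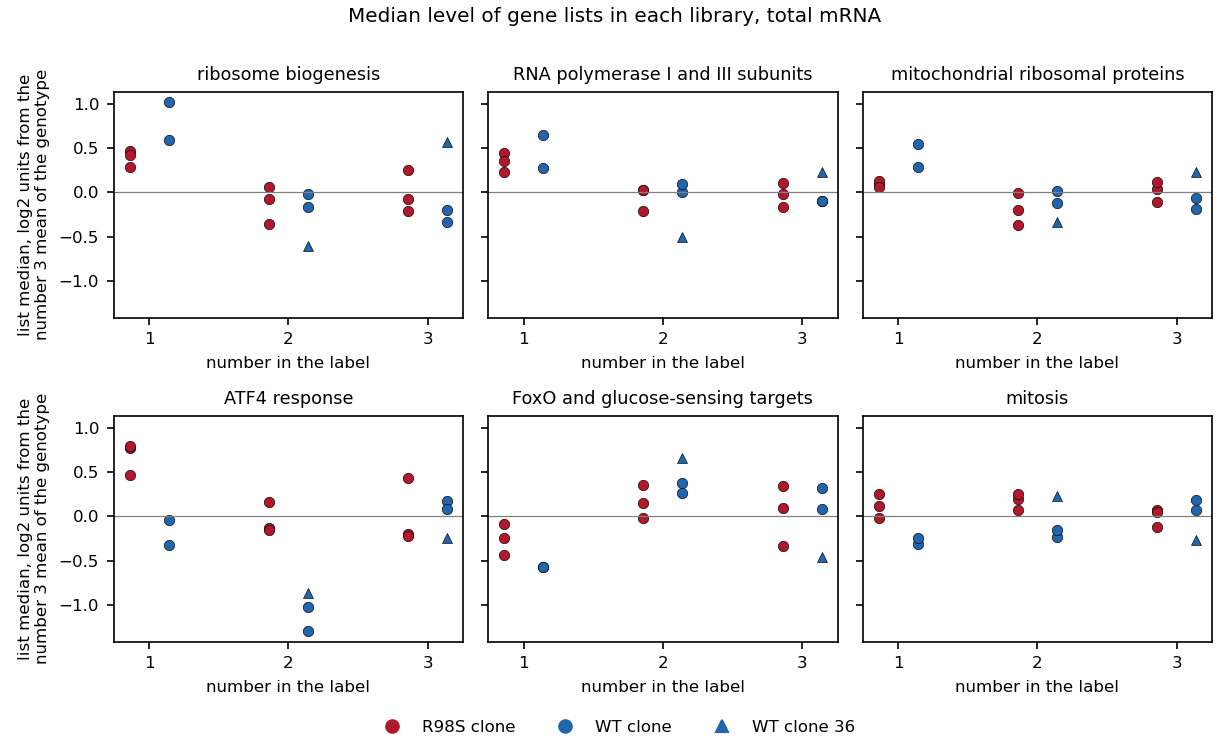
Median level of 6 gene lists in each of the 17 total mRNA libraries by the number in the label, as log2 units from the number 3 mean of the same genotype. For ribosome biogenesis the number 1 libraries lay at 0.28 or above, the number 2 libraries at 0.06 or below, and WT clone 36 with number 3 stood at 0.57. For the ATF4 response the R98S libraries of number 1 lay high and those of WT did not.

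The leading members act along the whole path from the ribosomal DNA to the finished subunit. Ppan (chr9:20888175-20892178), needed for maturation of the large subunit, stood at 3238, 2952 and 3002 in R98S and at 3561 and 4232 in WT with number 1, against 1639.8, 1688 and 1678 in R98S and 1093, 846 and 2094 in WT with number 3. Every number 1 library lay above every number 3 library, the nearest being WT clone 36 (log2 difference 1.21 ± 0.21, limma adjusted p = 0.00422). Rrp12 (chr19:41862851-41896173), which takes part in export of the subunits, stood at 2003, 1799 and 1699 in R98S and 1417 and 2183 in WT against 962, 1305 and 923 in R98S and 401, 375 and 1105 in WT (1.19 ± 0.28, limma adjusted p = 0.0163). The ranges again did not overlap, and the 2 WT clones with both numbers differed more than the R98S clones did. Tsr1 (chr11:74898071-74909342), an assembly factor of the small subunit, stood at 1770.3, 2168, 1474, 1478 and 2204 in number 1 and at 558 to 1269.6, with a median of 738, in number 3 (1.13 ± 0.22, limma adjusted p = 0.00702). Ubtf (chr11:102304560-102319742), the factor that opens the ribosomal DNA for RNA polymerase I, had a smaller difference but the narrowest spread of these, at 4090.4, 4651 and 5068 in R98S and 6037 and 5853 in WT against 2891, 3243 and 3228 in R98S and 3746, 3538 and 3896 in WT (0.61 ± 0.08, limma adjusted p = 0.00118). Tcof1, its partner in the nucleolus, rose by 0.58, Rrp1b by 0.98 and Nol6 by 0.96, and for all 3 the ranges of the numbers did not overlap within either genotype. Pinx1, a nucleolar and telomere protein, rose by 1.24 (1.05 without the number 1 library of WT clone 29). Usp36, a nucleolar deubiquitinase, rose by 1.15. Pinx1 lost its call without the number 1 library of WT clone 29 (limma adjusted p = 0.168, with 0.00645 to 0.168 over 25 alternative settings).

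Mettl1 and Trmt61a, which act on tRNA, were named for the size of their differences, and no list of tRNA-modifying enzymes was counted. Mettl1 (chr10:127041414-127046365), which places the 7-methylguanosine in tRNAs, stood at 228, 192 and 249 in R98S and at 256 and 389.6 in WT with number 1 against 105, 113 and 91.0 in R98S and 54.3, 48.4 and 166 in WT with number 3 (1.52 ± 0.31, limma adjusted p = 0.00857). Trmt61a (chr12:111678105-111683902), the catalytic part of a tRNA 1-methyladenosine enzyme, stood at 436, 389.9, 332, 274 and 487 against 27.8 to 235, with a median of 189 (1.51 ± 0.43, limma adjusted p = 0.0364). Its difference was 1.22 without the number 1 library of WT clone 29. Neither gene overlapped between numbers, and the call of Trmt61a was lost without the number 1 library of WT clone 29 (limma adjusted p = 0.13, with 0.00418 to 0.13 over 25 alternative settings). Of 18 subunits of RNA polymerases I and III, 10 rose and none fell, with a median of 0.37, beside 10.7% of all genes called higher. Without that library 5 of the 18 were called higher, beside 4.13% of all genes. Polr3d, a subunit of RNA polymerase III, stood at 703, 536 and 566 in R98S and 527 and 627 in WT against 310.0, 395 and 253 in R98S and 169, 149 and 445 in WT (1.12 ± 0.26, limma adjusted p = 0.0145). Among 53 translation initiation factors 17 rose and 1 fell (median 0.22), against 10.7% and 12.5% of all genes. Without the same library 6 were called higher, against 4.13% of all genes, and 0 lower in limma. These last 2 lists were drawn up after gene values had been seen.

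Promoter windows of 3 of these genes hold the E-box letters, and they are shown because they let the reader see where the letters lie relative to the start. The windows are RefSeq sequence of build GRCm38.p6, plus strand, from 250 bases before to 50 after the annotated start, with CACGTG, which reads the same on both strands, in capitals.
Tsr1: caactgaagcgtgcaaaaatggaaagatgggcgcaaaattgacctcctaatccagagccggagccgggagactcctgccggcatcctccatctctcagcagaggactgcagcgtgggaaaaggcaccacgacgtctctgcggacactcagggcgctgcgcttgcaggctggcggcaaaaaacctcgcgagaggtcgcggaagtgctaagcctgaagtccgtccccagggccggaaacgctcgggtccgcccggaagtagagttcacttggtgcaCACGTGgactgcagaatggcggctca
Mettl1: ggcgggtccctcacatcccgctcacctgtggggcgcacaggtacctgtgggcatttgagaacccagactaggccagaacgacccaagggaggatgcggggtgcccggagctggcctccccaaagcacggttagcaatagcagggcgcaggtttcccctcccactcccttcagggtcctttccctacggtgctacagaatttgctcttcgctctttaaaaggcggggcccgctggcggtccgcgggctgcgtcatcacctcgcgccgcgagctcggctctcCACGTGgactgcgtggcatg
Trmt61a: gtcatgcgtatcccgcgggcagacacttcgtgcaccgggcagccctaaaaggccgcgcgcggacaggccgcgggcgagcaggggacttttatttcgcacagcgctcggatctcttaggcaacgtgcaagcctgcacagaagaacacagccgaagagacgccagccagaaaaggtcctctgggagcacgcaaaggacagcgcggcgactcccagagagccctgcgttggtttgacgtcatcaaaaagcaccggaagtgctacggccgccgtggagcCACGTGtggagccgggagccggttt
The starts are those of RefSeq, and that of Mettl1 lies downstream of the first base of the gene in the GENCODE annotation used for gene positions. The windows lie at chr11:74897830-74898129, chr10:127041682-127041981 and chr12:111677855-111678154, and the letters begin 24, 30 and 25 bases after the start. Of 77 windows matched to the ribosome biogenesis list, 14 (18.2%) held CACGTG, against 7.15% of 32851 windows of all genes and 10% of 10468 windows of the genes tested. A gene with several starts has several windows. Counted by gene, 13 of 67 genes of the list (19.4%) held it, against 974 of 8213 genes tested (11.9%). The windows of Ppan, Usp36, Ubtf, Rrp1b and Slc29a2 do not hold it. A match is a description of the letters and not of a factor's binding.

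Ribosomal proteins themselves differed less than the factors that assemble them. Of 78 cytosolic ribosomal protein genes 10 rose and none fell (12.8% called, median 0.14), near the share of all genes called higher, and 3 were called without the number 1 library of WT clone 29, also near the 4.13% of all genes. Rpl23a had the largest difference, at 397, 513 and 1169 in R98S and 346 and 905 in WT against 156, 195 and 116 in R98S and 163, 126 and 104 in WT (2.06 ± 0.30, limma adjusted p = 0.00178), with no overlap. Rpl29 rose by 0.49 and Rps18 by 0.96. These genes and the processed copy Gm8186 (1.22) share sequence with pseudogenes, so their reads are uncertain. Of 76 mitochondrial ribosomal protein genes 16 rose and 1 fell (median 0.24), among them Mrps18b by 1.05, and of 77 nuclear genes for oxidative phosphorylation 21 rose and 3 fell (median 0.18), among them Cox6b1 by 0.51 and Atp5k by 0.58. Both lists are to be read beside the 10.7% of all genes called higher and 12.5% called lower. Each had 2 higher calls without the number 1 library of WT clone 29, a share below the 4.13% of all genes. The clone as a block compares each clone with itself. That fit called 24 and 23 genes of these lists higher, against 14.4% of all genes. Within WT, where it rests on clones 28 and 29 alone, the block called 43 and 44 higher, against 15.2% of all genes. Within R98S it called 1 and 2, against 5.79%. A length correction left 12 and 7 higher calls, and 4 among the cytosolic ribosomal proteins, where 1213 of 11093 genes were called higher. The 11 tested protein genes of the mitochondrial genome gave 0 higher and 3 lower calls in limma, mt-Atp8, mt-Co1 and mt-Atp6. With a GC correction none of the 3 was called and 4 others of the 11 were called higher, where 7.65% of all genes were.

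Over both genotypes and without the clone as a block, genes of the amino acid response and of protein folding gave few calls. Of 35 genes of the ATF4 response 5 rose and 1 fell (17.1% called, below the 23.3% of all genes, median 0.38), although 31 had a positive difference. Atf4, the factor itself, stood at 9957, 9651 and 10108 in R98S and 9044 and 13696 in WT with number 1 against 3559, 5640.2 and 3711 in R98S and 7614, 6849.8 and 7578 in WT with number 3 (0.95 ± 0.16, limma adjusted p = 0.00382). The numbers were apart in both genotypes, more widely in R98S. Gars and Wars, which charge tRNAs with glycine and tryptophan, rose by 0.62 and 0.49. Cebpg, a dimer partner of ATF4, moved the other way, at 724, 703 and 560.1 in R98S and 795 and 788 in WT against 1044, 1061 and 965 in R98S and 3957, 2095 and 1700.3 in WT (-1.07 ± 0.23, limma adjusted p = 0.0105). Of 24 chaperones of the endoplasmic reticulum 5 rose, including Dnajb11 (0.54) and Syvn1 (0.39), the second not called with a GC correction. Among 15 heat shock genes 2 rose, Hsp90ab1 (0.40) and Hspa8 (0.79), and 2 fell, Chordc1 and Hspa4l, whose calls were lost with a GC correction. Hspa8 and Hspa4l were not called without the number 1 library of WT clone 29. Of 29 genes of the NRF2 redox response 5 rose, including Srxn1 (0.40), Gclc (0.43) and G6pdx (0.38), the last not called with a GC correction. Without the number 1 library of WT clone 29 the higher calls were 3 for the ATF4 response, 2 for the chaperones, 1 for heat shock and 3 for NRF2, where 4.13% of all genes were called higher. Beside 10.7% of all genes called higher and 12.5% lower, the heat shock counts and the higher count of the ATF4 list were near the background, the lower count of the ATF4 list was below it, and those of the chaperones and NRF2 rest on 5 genes each.

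Genes that FoxO factors control, and the main glucose transporter, were lower in number 1 where they were called. All 16 tested genes of the FoxO and glucose-sensing list had a negative difference, with a median of -0.33, and 5 fell (31.2% called, against 12.5% of all genes called lower). Without the number 1 library of WT clone 29 only 1 was called, beside 7.65% of all genes called lower, and without WT clone 36 there were 7, beside 14.7%. Ccng2, an inhibitor of the cell cycle, stood at 519, 668 and 499 in R98S and 375 and 294 in WT against 1332, 565 and 1509 in R98S and 3177, 2899 and 617 in WT (-1.58 ± 0.45, limma adjusted p = 0.0348). Cdkn1b, which encodes p27, stood at 739.6, 689 and 731 in R98S and 809 and 672 in WT against 1986, 690.4 and 1714 in R98S and 2373, 2226 and 819 in WT (-1.0 ± 0.31, limma adjusted p = 0.0462). For both genes R98S clone 13 and WT clone 36 with number 3 lay at or near the levels of number 1, and the other 4 number 3 libraries lay far above them. Foxo3 fell by 0.53 and Cited2 by 0.62. Ccng2, Cdkn1b and Cited2 were not called without the number 1 library of WT clone 29, nor Cdkn1b with a GC correction. The glucose transporter Slc2a1 stood at 649, 645 and 775 in R98S and 781 and 545 in WT against 1213, 838 and 1373 in R98S and 2050.0, 1762 and 1054 in WT, with no overlap (-0.95 ± 0.20, limma adjusted p = 0.0105). In the glycolysis list of 20, Pgk1 (0.62), Eno1 (0.61) and Pkm (0.53) rose and Slc2a1 fell, and in the hypoxia list of 23, 1 rose and 4 fell, with Ankrd37 at -2.24. The shares of these 2 lists called in either direction lay near the 23.3% of all genes.

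Of 20 p53 targets 3 fell and 1 rose, with a median of -0.40, which is near the 12.5% and below the 10.7% of all genes. Trp53inp1 (chr4:11156431-11174379), a stress protein that acts with p53, stood at 795, 1031 and 791 in R98S and 629.5 and 193 in WT against 2385, 2420.0 and 1418 in R98S and 1689, 1275 and 2415 in WT. Its numbers did not overlap, with WT clone 29 lowest (-1.70 ± 0.32, limma adjusted p = 0.00557). Rrm2b (-0.51) and Polk (-0.66) also fell and Plk3 (1.09) rose, and with a GC correction none of these 3 was called, nor were Polk and Plk3 without the number 1 library of WT clone 29. Of 48 genes of DNA replication 6 fell and none rose, and of 39 genes of mitosis 4 fell and 2 rose. The lower calls made up the same share of the replication list as of all genes, 12.5%, and a smaller share of the mitosis list, so neither count is a result about its genes. Without the number 1 library of WT clone 29 the lower calls were 2 of the p53 targets, 2 of replication and 3 of mitosis, against 7.65% of all genes. Ccne2, which drives entry into S phase, fell by 1.0 (209, 214, 315, 233 and 188 in number 1, 356 to 758 in number 3), but with a GC correction it was not called, nor were Ect2 and Bub1. Genes that respond to interleukin-3 through STAT5 gave 1 call of 14, a smaller share than the 23.3% of all genes, and Ccnd3 and Pim1 had differences of -0.42 and -0.32, the second not called. Of 26 immediate early genes 4 were called, also a smaller share than that of all genes. Srf (0.71) and Fosl1 (1.01) rose and Dusp6 and Nr4a2 (both -0.71) fell. Fosl1 was not called with a GC correction or without that library, with differences of 0.90 and 0.87.

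Klf1, an erythroid transcription factor, fell in all 5 clones. It stood at 355, 278 and 192 in R98S and 390.3 and 312 in WT with number 1 against 941, 497 and 799 in R98S and 1864, 1131 and 622 in WT with number 3 (-1.53 ± 0.27, limma adjusted p = 0.00441). The other 2 erythroid markers tested, Hba-a1 and Epor, were not called. Other genes rose with wide gaps between the numbers. Angptl4, a secreted inhibitor of lipoprotein lipase, stood at 439, 377 and 335 in R98S and 492 and 572 in WT against 211, 129 and 169 in R98S and 186, 181 and 222 in WT (1.30 ± 0.15, limma adjusted p = 0.0005). Slc29a2, a nucleoside transporter, rose by 1.27. Nr1d1, a repressor of the circadian clock, rose by 1.43, at 114, 158, 97.7, 74.2 and 93.3 in number 1 and 24.7 to 59.2 in number 3, while Per3 fell by 0.80 and Cry2 rose by 0.62, the latter not called with a GC correction. These were the 3 calls among 14 clock genes, near the 23.3% of all genes.

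The lowest transcripts in number 1 were of another kind, a mitochondrial tRNA and many zinc finger genes. mt-Tc, the tRNA for cysteine (chrM:5192-5257, minus strand, mm10), had 13 to 68 reads in the number 1 libraries and 261 to 670 in those of number 3. In normalized reads it stood at 14.5, 22.0 and 48.9 in R98S and 59.4 and 19.8 in WT against 359.6, 287 and 302 in R98S and 403, 423 and 632 in WT (-3.67 ± 0.32, limma adjusted p = 0.000142). It is shown because it had the largest difference of the named genes and is only 66 bases long, far below the length of most mRNAs.
mt-Tc: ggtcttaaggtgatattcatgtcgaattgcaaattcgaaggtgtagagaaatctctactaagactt
The authors removed reads of tRNA and rRNA before alignment, so the counts are what was left of these RNAs. Of the other mitochondrial tRNA and rRNA genes, mt-Tp alone was tested (0.40, limma adjusted p = 0.502), mt-Tn reached 3.09 normalized reads and the rest were at 0. The 6 libraries with number 2 had 5.14 to 285 normalized reads of mt-Tc, with a median of 12.4.

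Zinc finger genes with numbered Zfp names, most of which encode DNA-binding repressors, were drawn up as a list after their values had been seen. Of 263 tested, 69 fell and 17 rose, with a median of -0.10, where 12.5% of all genes fell and 10.7% rose. Zfp808 (chr13:62129886-62236144) stood at 66.9, 43.1 and 87.0 in R98S and 81.2 and 76.8 in WT against 504, 232 and 332 in R98S and 612, 348 and 230.1 in WT (-2.31 ± 0.28, limma adjusted p = 0.000554). Gm13225 had the smallest adjusted p of the named genes, at 340.2, 291 and 274 in R98S and 252 and 199.7 in WT against 1087, 1147 and 990.2 in R98S and 833, 635 and 775 in WT (-1.78 ± 0.11, limma adjusted p = 2.1e-05). Neither gene overlapped between numbers. Zfp758 (-2.08), Zfp947 (-1.55), Gm3604 (-1.73), Gm13230 (-1.72), Gm13212 (-1.63) and Gm4944 (-1.63) fell in all 5 clones as well. The Gm genes carry no Zfp name and are not part of the list. Gm13230 is annotated as a transcribed pseudogene. Gm13225 had no annotated GC content, so the GC correction did not act on it. In windows of 2 Mb, chosen after the calls were seen, 16 of 27 tested genes fell at chr13:66000001-68000000, 14 of them Zfp genes such as Zfp458 (-1.65), 11 of 14 fell at chr17:20000001-22000000 and 10 of 21 at chr4:146000001-148000000, where the median window with at least 10 tested genes held 2. With a GC correction 5, 7 and 5 of these genes were called lower. These clusters hold close copies of one another, and the reads of single members are uncertain.

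GC content moved with the number. Genes were divided into 5 groups of equal size by the GC content of their exons, which was known for 99% of those tested, and the median log2 difference was -0.30, -0.04, 0.07, 0.12 and 0.10 from the poorest to the richest group. In the poorest group 39.3% of genes fell and 2.73% rose, and in the richest 2.92% fell and 13.8% rose. Every clone had its lowest median in the poorest group, from -0.39 in WT clone 29 to -0.17 in R98S clone 35. Of the zinc finger genes 124 lay in that group and 50.8% of them fell, against 38.6% of its other 2072 genes. Relative to the number 3 mean of its genotype, the level of GC-rich against GC-poor genes was 0.27 to 0.53 on the log2 scale in the number 1 libraries. It was -0.10 to 0.19 in those of number 3, which set the baseline, and these ranges did not overlap. The number 2 libraries, which did not enter the test, stood at -0.08 to 0.34 and overlapped both. After removal of the trend with GC from each library, limma called 1662 genes (15.0%), 849 (7.65%) higher and 813 (7.33%) lower. Ribosome biogenesis had 49 higher calls with a median of 0.58, 40 of them also called before the correction, whereas the zinc finger list went to 23 higher and 34 lower calls. The part of GC content in the single calls was not tested otherwise.

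**Figure D3:**
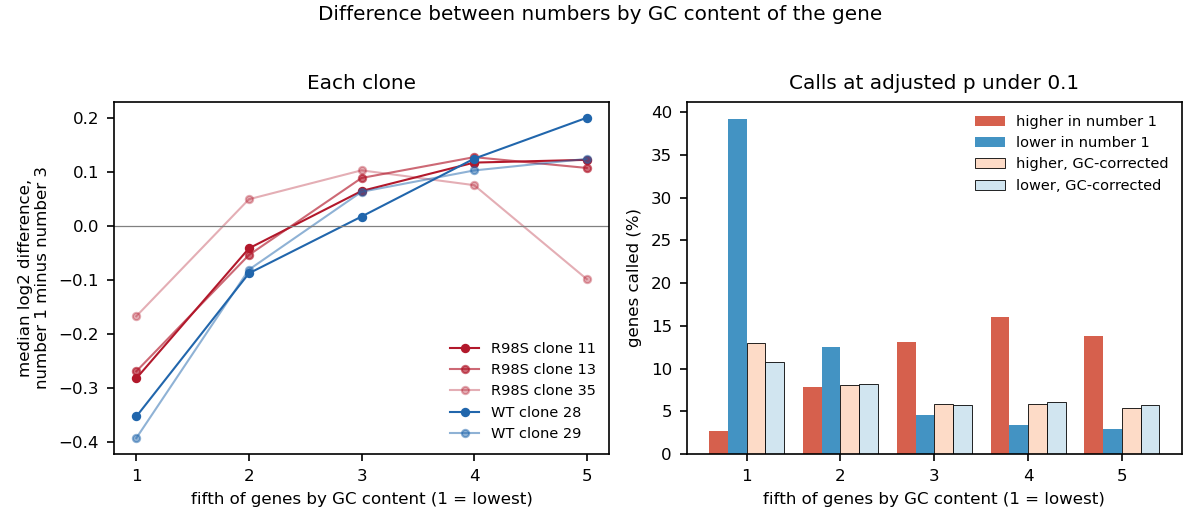
Left, the median log2 difference of number 1 minus number 3 in 5 equal groups of genes by GC content, for each of the 5 clones that have both numbers. Right, the share of genes called in each group, before and after a GC correction: 39.3% of the poorest group was called lower before it and 10.7% after.

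Within R98S, where the same 3 clones stand in both numbers, limma called 210 of 11078 genes (1.90%), 56 (0.506%) higher and 154 (1.39%) lower in number 1. With the clone as a block, which compares each clone with itself, it called 1494 (13.5%), 641 (5.79%) higher and 853 (7.70%) lower. The list of ribosome biogenesis had 5 higher calls without and 38 with the block (median 0.38), and none lower. The ATF4 response had 4 higher calls without the block, and 27 higher and 1 lower of 34 with it, at a median of 0.72. Further genes that rose within R98S were Tgm2, a transglutaminase, at 2287, 2364 and 869 against 299, 639 and 221 in clones 11, 13 and 35 (log2 difference 2.26, limma adjusted p = 0.0913), Usp17la at 325, 339.7 and 380.2 against 68.9, 126 and 135 (1.71, limma adjusted p = 0.0646) and I830077J02Rik at 141, 153 and 141 against 55.1, 66.2 and 55.2 (1.29, limma adjusted p = 0.0646). Gm8822 (-1.60), Gm23935 (-1.58) and Zfp947 (-1.57) fell. With a GC correction 1 gene was called without the block and 909 with it. Leaving out 1 library at a time gave 0 to 2 calls, except that 856 were called without clone 13 of number 3.

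Within WT, where the authors' exclusion of a library bears on number 1, limma called 0 of 10943 genes (0.00%), with 2485 at an unadjusted p under 0.05, and edgeR also called 0, while DESeq2 called 1469. With the clone as a block, which leaves out clone 36, 3629 of 10936 (33.2%) were called, and without clone 36 the unblocked fit called 4394. The WT block rests on clones 28 and 29 alone, which leaves little to estimate the spread from. The deviations of their same-clone libraries correlated at -0.20 and -0.12, so the block is not backed by likeness within a clone there. Over the 10728 genes tested in both genotypes, the differences in R98S and WT had Pearson's r = 0.61 and Spearman's rho = 0.62 across genes, with the same sign for 73.9%. Genes are not independent replicates, and both axes share the GC trend, without which r was 0.55.

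**Figure D4:**
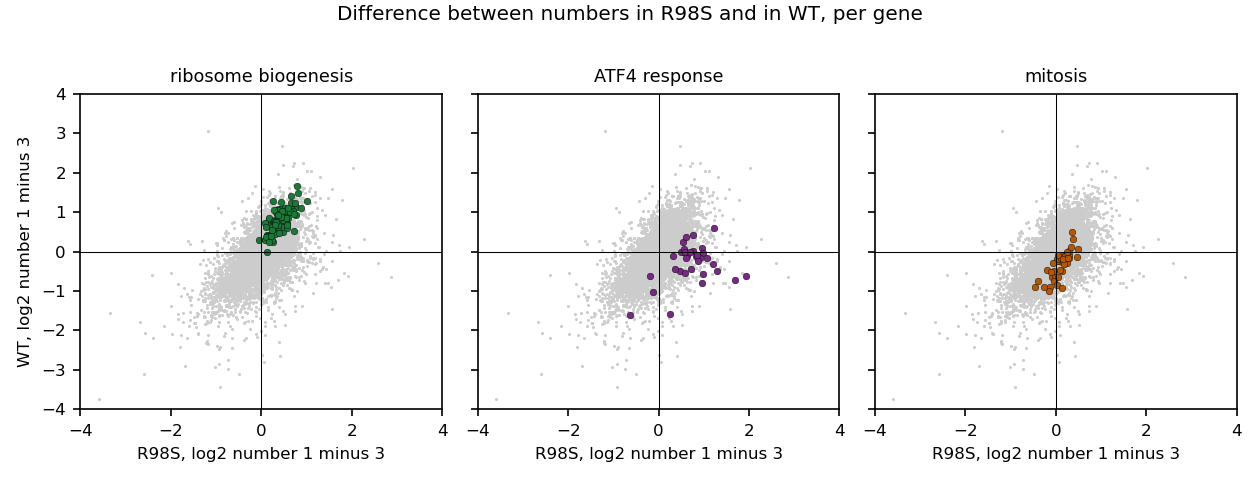
Log2 difference of number 1 minus number 3 within WT against that within R98S, 1 point for each gene tested in both, with the members of 3 lists in colour. The points of ribosome biogenesis lie mostly above 0 on both axes, those of the ATF4 response lie mostly at positive values in R98S and around or below 0 in WT.

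The difference between genotypes was tested as an interaction of genotype and number. In limma 0 of 11093 genes passed (0.00%), with 379 at an unadjusted p under 0.05 and 0 in edgeR and DESeq2. With the clone as a block 378 of 11106 passed (3.40%), 197 (1.77%) with a more positive difference in R98S and 181 (1.63%) with a more positive one in WT. The ATF4 response had 19 of its 35 genes in the first group and none in the second. Its median was 0.88, 0.47 and 0.73 in R98S clones 11, 13 and 35 and -0.49 and -0.13 in WT clones 28 and 29. Trib3, a pseudokinase induced by ATF4, stood at 777, 1215 and 198 against 114, 247 and 119 in R98S and at 559.7 and 1227 against 1893, 1712 and 629 in WT. Asns, which makes asparagine, stood at 3399, 4469 and 3848 against 1293, 3341 and 1123 in R98S and at 4249 and 3969 against 5873, 5100.1 and 4354 in WT. These 2 were picked after their values were seen, and each was higher in number 1 in all 3 R98S clones and lower in both WT clones. Mitosis genes had 11 of 39 calls with a more positive difference in R98S, and ribosome biogenesis had 16 of 80 with a more positive difference in WT, among them Bop1, an assembly factor of the large subunit, at 3007, 2793 and 2503 against 2029.7, 2673 and 2244 in R98S and 2644 and 3267 against 864, 854 and 2365 in WT.

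Polysomal RNA of these clones, normalized in a table of its own, was read for the members above. Its number 1 libraries were R98S clones 11, 13 and 35 and, of WT, clone 29 alone. Those of number 3 were the same R98S clones and WT clones 28, 29 and 36. Between 4 number 1 and 6 number 3 polysomal libraries 7209 of 10724 genes (67.2%) were called, 3623 (33.8%) higher and 3586 (33.4%) lower, so that a call there says little about a gene. Ribosome biogenesis had 21 higher and 27 lower calls in that fraction, with a median of -0.02. In the same direction as in total mRNA, mt-Tc (-3.44), Zfp808 (-2.14), Gm13225 (-1.97), Tsr1 (0.90), Ubtf (0.90), Usp36 (0.76), Srf (0.90), Eno1 (0.52) and Pkm (0.63) were called. Ppan (0.14), Rrp12 (0.33) and Trmt61a (0.13) were not, nor was Polr3d (-0.20). Of 120 named genes, not all of them called in total mRNA, 50 were called in the polysomal RNA in the direction of their total mRNA difference. In the opposite direction 28 were called, while 39 were not called and 3 were not tested there. Among those called by limma in the opposite direction were Mettl1 by -0.65 (adjusted p = 0.0235), Atf4 by -0.66 (adjusted p = 0.00211), Rpl10 by -0.96 (adjusted p = 0.000751) and Gm8186 by -1.51 (adjusted p = 0.00169), and likewise Fosl1 (-0.48), Dnajb11 (-0.41), Plk3 (-0.80), Nr4a2 (1.21), Per3 (1.27) and Foxo3 (1.32). The lists of ribosomal proteins and of oxidative phosphorylation also went the other way. Of 78 cytosolic ribosomal protein genes 74 were lower and 1 higher, of 76 mitochondrial ones 73 were lower and 0 higher in limma, and of 77 nuclear genes of oxidative phosphorylation 71 were lower and 1 higher. With a length correction the polysomal fit called 5894 genes, and 6281 of the 7209 earlier calls kept their sign. These lists were not counted under that correction, so their shift cannot be told apart from one with transcript length.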

How the data were processed

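Total mRNA was sequenced from Ba/F3 clones with a stranded poly(A) kit. Per the study's methods and processing notes, rRNA and tRNA reads were removed with Bowtie2, the rest were aligned to mm10 with TopHat2 2.0.11 and counted per gene with HTSeq; whether strand was used in counting is not given in the sources used here. The deposited values are a signal that the authors made by dividing the read counts by DESeq2 size factors. The polysomal table was normalized separately.

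Values were tested as log2(value + 1) with limma 3.58.1 (R 4.3.3) over genes with a mean of at least 10, genotype as covariate, Benjamini-Hochberg adjusted p under 0.1. Fold changes on this scale understate low genes. Contrasts are number 1 minus number 3. Whole reads could be recovered for 100% of the values (within 0.001 of a whole read) and entered edgeR 4.0.16 and DESeq2 1.42.0 as alternatives, which also covered scaling, filters, pseudocount, GC and length corrections, a clone block and leaving out each library. Numbers pair the libraries because the same clone is the same cell line; the deviations of same-clone libraries correlated at 0.59, 0.53 and 0.58 in R98S and at -0.20 and -0.12 in WT.

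Named were up to 12 genes per direction with the largest called difference, a mean of at least 100 and the same sign in all 5 clones, up to 4 genes per list with the smallest adjusted p, Rpl10 and Psph, and up to 3 further genes per direction within R98S. Genes and lists were chosen with earlier results of these data known. Gene positions and GC content came from GENCODE M21, sequences from RefSeq (GRCm38.p6) and the genome. Figures were drawn with matplotlib 3.10.9.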

Additional observations from a re-analysis of the deposited data

Results flagged for a closer look

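Some differences between numbers had one sign in every R98S clone and the opposite sign in every WT clone that has both numbers. They are given as the mean over the 3 R98S clones minus the mean over the 2 WT clones, in log2 units. For the median of the ATF4 response list it was 1.0, for the mitosis list 0.47 and for the lysosome and autophagy list 0.26, and these medians were not tested. In the interaction with the clone as a block 19 of 35, 11 of 39 and 2 of 30 genes of these lists were called by limma, all with a more positive difference in R98S, where 1.77% of all genes had such a call. The 2 genes of the lysosome list are too few to describe the list. Among single genes, Trib3 had 3.05, I830077J02Rik 1.77 and Asns 1.61. All 3 passed the blocked interaction test in limma, and none passed it without the block. These lists and genes were picked for opposite signs in the same values, so their interaction calls restate the choice and are no separate evidence. The groups hold 2 or 3 libraries per genotype and number, too few for a test of single libraries that stand apart.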

How the results depend on the processing

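For the 11 libraries, the 2581 calls became 1662 with a GC correction, 1672 at an adjusted p under 0.05, and 1308 (without the number 1 library of WT clone 29) to 3093 (without WT clone 36) when 1 library was left out. With the clone as a replicate block 3450 genes were called, and 2702 with the GC correction as well. Within R98S the 210 calls became 849 with DESeq2, 1494 with the replicate block, 909 with the block and a GC correction, 1 with a GC correction alone, and 0 to 856 with a library left out. Within WT the 0 calls became 1469 with DESeq2, 3629 with the block, 2574 with the block and a GC correction, and 0 to 4394 with a library left out. For the interaction the 0 calls became 378 with the block, 389 with the block and a GC correction, and 0 to 24 with a library left out. The cause of these shifts was not tested. Scaling, pseudocount, filters, length correction and thinning to the shallowest library left the 2581 calls within 1.5 times. The length correction moved single lists further. Higher calls went from 21 to 7 for oxidative phosphorylation and from 10 to 4 for cytosolic ribosomal proteins.

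Among 124 named genes 31 lost their call and 3 turned their sign with a GC correction, and 32 lost it without the number 1 library of WT clone 29. The sign turned for Chordc1 (0.23 with a GC correction, 0.29 with the block and GC), mt-Nd3 (0.23 and 0.22) and Srsf1 (0.0075 and 0.035). Lone libraries left in a group are assumed to vary like the others.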

Other observations

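Other gene groups gave few calls or calls in both directions, to be read beside the 10.7% of all genes called higher and 12.5% called lower. Apart from the splicing regulators, where a larger share rose, the counts below are near that background or rest on 3 genes or fewer, and are no result about the lists. Of 30 SR proteins, Clk kinases and splicing regulators 7 rose and 4 fell, and with a GC correction, where 7.65% of all genes were called higher, 8 rose and none fell, with 4 genes called in both fits. Srsf6 rose by 0.43 and Acin1 by 0.44, and Acin1 was not called with a GC correction. Of 24 genes of cholesterol synthesis and uptake 4 fell, among them Stard4 (-0.43) and Insig1 (-0.49), and 2 rose, and with a GC correction 3 fell and none rose. Without the number 1 library of WT clone 29, 1 of these genes was called lower and none higher, and Insig1 was not called. In the interferon list of 30 genes 3 fell, among them Stat2 (-0.45), and none rose, and in the NF-kB list of 14 Traf1 (0.96) and Nfkb1 (0.61) rose. Stat2 and Traf1 were not called without that library, nor Nfkb1 with a GC correction. Of 30 lysosome and autophagy genes 3 fell and 2 rose, with Lamp2, a membrane protein of the lysosome, at -0.92, a call lost with a GC correction. Of 12 fatty acid synthesis genes 2 rose and 1 fell, and of 8 tested histone genes of the clusters 1 rose and 1 fell.

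Ptpn14 (-1.70), a tyrosine phosphatase, Prex2 (-1.64), which activates Rac, and Muc6 (-1.68), a mucin, were lower in number 1 in all 5 clones. Their differences were -1.26, -1.51 and -1.83 without the number 1 library of WT clone 29. Without the number 1 library of WT clone 29 limma no longer called Ptpn14 (adjusted p = 0.117, with 0.00606 to 0.117 over 25 alternative settings) or Muc6 (adjusted p = 0.132, with 0.00441 to 0.212). Cpa3, a mast cell protease, had -1.79 ± 0.65 (limma adjusted p = 0.0827), with R98S clone 13 at nearly the same level in both numbers, and was called under 13 of 25 alternative settings (adjusted p = 0.0175 to 0.236).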
